A study of Danio rerio with 2 samples.

Results

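The cytosolic ribosomal protein genes encode the protein parts of the ribosome that translates messenger RNA outside the mitochondria. They were taken by symbol: every gene named rpl or rps followed by a digit, with RPSA and RPLP0, RPLP1 and RPLP2 forms, and without the rps6k kinases. By this rule 75 of the 22342 zebrafish genes in the tables were members, and all 75 had counts on both plates. By symbol, 41 were genes of the large subunit and 33 of the small subunit. The last, rps19bp1, has a matching name but its product is no ribosome subunit, and it is counted apart where it matters. The 41 include RPL7L1, placed there by its name, although its yeast relative Rlp7 acts in assembly of the large subunit. Of the 22342 genes, 17425 had a symbol, so a member without one would not have been found. A further 10 genes whose names meet the rule were not analysed here. The symbols come from a reference table that gives many zebrafish identifiers their human-style names, such as RPS4Y2 and RPSA2.

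A ribosome needs nearly all of these proteins at once, so cells make them together and in matched amounts. Their mRNAs begin with an oligopyrimidine tract, a run of C and U bases through which the growth-control kinase mTOR raises their translation, and the same tract is found on elongation factor mRNAs. Growing and dividing cells build many ribosomes, whereas mature neutrophils, which are short-lived, make few. Haploinsufficiency of several ribosomal protein genes, RPS19 first among them, causes Diamond-Blackfan anemia, in which erythroid progenitors fail.

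The data are single-cell SORT-seq libraries from the tails of zebrafish embryos at 3 dpf (days post fertilisation) that carry mpeg1:EGFP and runx1+23:mCherry. The mpeg1 promoter drives EGFP in macrophages, and runx1+23 drives mCherry in hematopoietic stem and progenitor cells (HSPCs). On each of 2 plates of 384 wells, EGFP+mCherry+ cells went into wells 1 to 192 and EGFP+mCherry- cells into wells 193 to 384, and a well with both colours was taken in the study as a macrophage that had taken up HSPC material. All cells therefore passed the EGFP gate, and no cells from outside it were measured. The labels do not give the number of embryos, or say whether the plates came from separate clutches. Below, the gates are called mCherry+ and mCherry-.

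A unique molecular identifier (UMI) count estimates the number of mRNA molecules captured from a gene in a well. The plates held 3266486 and 2962587 UMIs of genes. Wells with at least 500 UMIs and 200 genes were kept, which left 534 of 768 wells. Plate 1 kept 143 mCherry+ and 151 mCherry- wells, and plate 2 kept 123 mCherry+ and 117 mCherry- wells. The kept wells had a median of 8862 UMIs, of which a median of 905 came from ribosomal protein genes. Both tables use the same 384 well names, and wells were told apart by plate. Wells were grouped by clustering with all 75 members left out, and clusters were named from marker lists. By those markers 204 of the 534 wells were macrophage-like (clusters 1, 3 and 7) and 124 were neutrophil-like (clusters 4 and 5), although the labels call every cell a macrophage. There were also 14 muscle-like and 8 erythroid-like wells. The remaining clusters stayed unnamed and are given by number. Cluster 8 (29 wells) had raised 5 of 12 progenitor markers, 9 of 20 proliferation markers and 4 of 12 erythroid markers, with MYB, TAL1 and PCNA among its 10 leading genes. Cluster 2 (70 wells) had raised 1 of 12 progenitor and 2 of 20 proliferation markers, and none of the 21 macrophage or 13 neutrophil markers. Cluster 9 (23 wells) had raised 7 of 10 epithelial and 7 of 15 fibroblast markers and was led by collagen genes. Clusters 6 and 11 were shallow, at a median of 1030.0 and 1362 UMIs.

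Ribosomal protein genes made up 11.4% of all UMIs in the kept wells. The share of a single well ranged between 0.446% and 33.6%, with a median of 9.91%. The highest well, at 33.6%, was a neutrophil-like mCherry+ well of plate 1 with 2395 UMIs. The lowest, at 0.446%, was a cluster 6 mCherry- well of plate 1 with 7843 UMIs. Share and depth had a Spearman rho of 0.241 over the 534 wells, of -0.00437 over the 204 macrophage-like wells, of 0.156 over the 124 neutrophil-like wells and of 0.727 over the 14 muscle-like wells. These are descriptions, since the same UMIs enter both measures.

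The share differed most between classes of cell. Cluster 8 wells had the highest median, 21.2% on plate 1 (25 wells) and 22.0% on plate 2 (4 wells). Cluster 2 wells followed at 19.95% on plate 1 (54 wells) and 17.7% on plate 2 (16 wells). Macrophage-like wells had medians of 10.8% on plate 1 (77 wells) and 10.0% on plate 2 (127 wells). Neutrophil-like wells had the lowest medians of the myeloid classes, 6.28% on plate 1 (82 wells) and 5.82% on plate 2 (42 wells). The order was the same on both plates, cluster 8, cluster 2, macrophage-like and neutrophil-like. The gaps between macrophage-like and neutrophil-like wells exceeded the differences between plates within either class taken as a whole. The neutrophil-like wells were mostly of cluster 4 on plate 1 and of cluster 5 on plate 2. Cluster 5 alone differed between plates by more than these gaps, as given below. Clusters 8 and 2 differed on plate 1 by less than cluster 2 differed between plates.

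**Figure D1:**
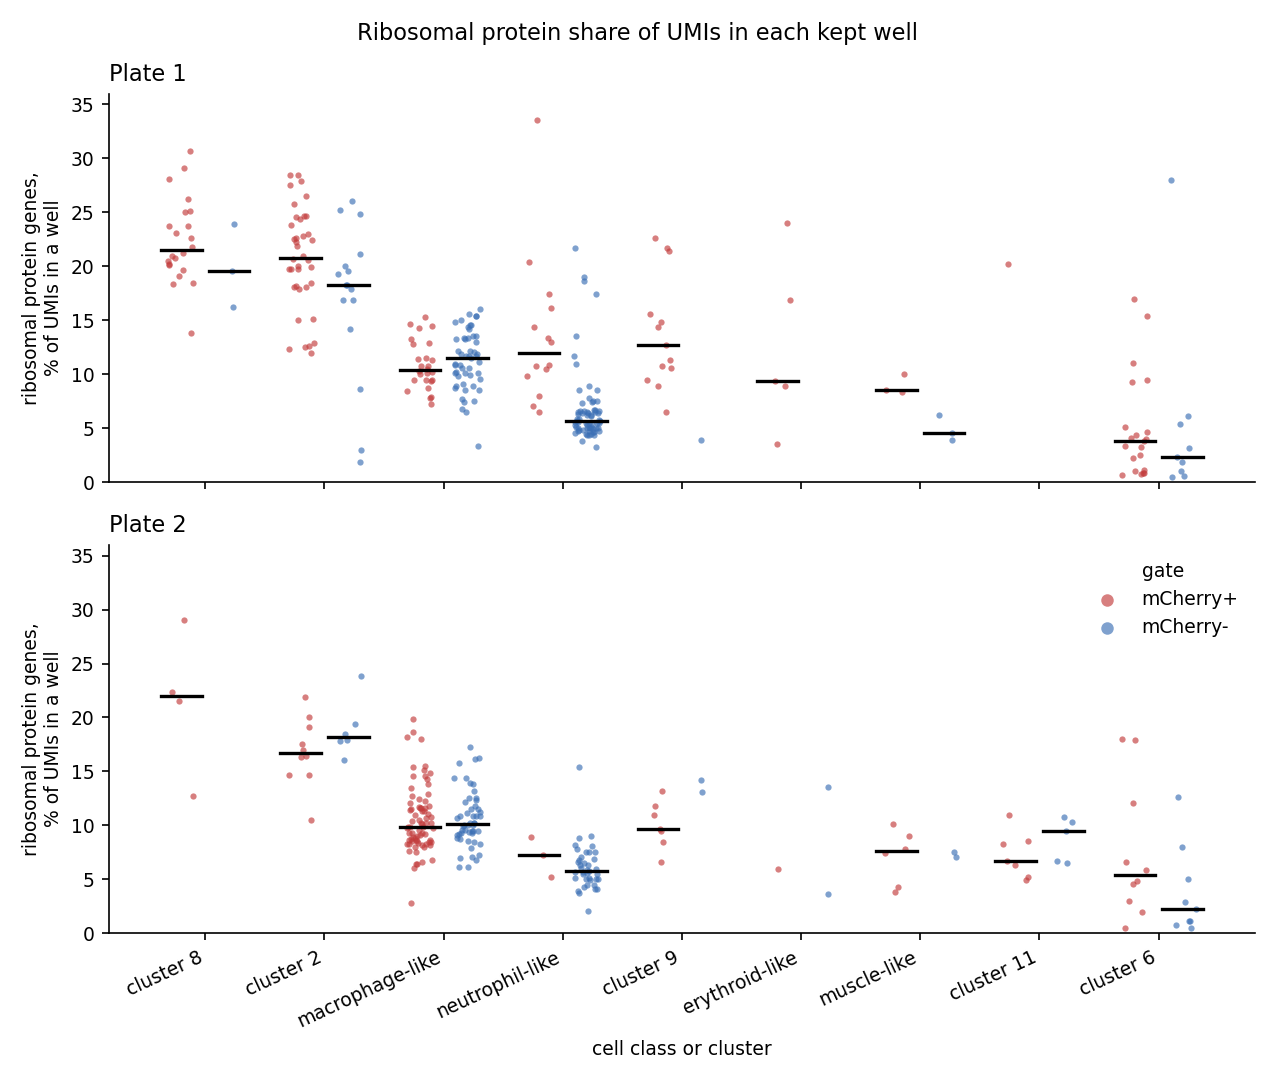
Share of a well's UMIs that came from the 75 ribosomal protein genes (y axis, percent) for each kept well, by cell class or cluster (x axis), on plate 1 (upper panel) and plate 2 (lower panel). Points are wells, red for mCherry+ and blue for mCherry-, and black bars are medians of groups with at least 3 wells. Cluster 8 and cluster 2 wells sit around 20% and above most macrophage-like wells, and neutrophil-like mCherry- wells sit lowest of the myeloid groups.

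On plate 1, 24 of 25 cluster 8 wells and 43 of 54 cluster 2 wells were above 16.0%, the highest macrophage-like well of that plate. On plate 2, 3 of 4 cluster 8 wells and 3 of 16 cluster 2 wells were above its highest macrophage-like well, at 19.8%. All 16 of these cluster 2 wells were above the macrophage-like median of 10.0%. Of the neutrophil-like wells, 14 of 82 on plate 1 and 1 of 42 on plate 2 were above the macrophage-like median of their plate. On plate 1, 8 of these 82 were also above the highest macrophage-like well. So were 3 of 14 cluster 9 wells, 2 of 5 erythroid-like wells, 2 of 30 cluster 6 wells and the 1 cluster 11 well. No well of these classes was on plate 2. A cluster is made of wells chosen for their expression, so these shares are described and were not tested.

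A share also depends on what else a cell expresses. The 13 neutrophil markers alone took a median of 83607 and 130481 UMIs per 1000000 UMIs (CPM) in neutrophil-like wells of plates 1 and 2. With all 142 marker genes of every list left out of the denominator, the mean of the plate medians was 21.9% in cluster 8, 10.7% in macrophage-like wells and 6.80% in neutrophil-like wells. The order of cluster 8, macrophage-like and neutrophil-like wells did not change. No value of cluster 2 on this denominator is given here. The spike-in RNA that was sequenced with each well gives another scale. Ribosomal protein UMIs per spike-in UMI had a median of 24.5 on plate 1 and 36.4 on plate 2 in cluster 8, and of 14.5 and 18.1 in cluster 2. They were 10.7 and 16.2 in macrophage-like wells, and 4.34 and 6.51 in neutrophil-like wells. On this scale cluster 2 stood nearer to macrophage-like than to cluster 8 wells on both plates. Its wells held fewer UMIs in all, a median of 7233 against 10752 in macrophage-like wells. A muscle-like well had a share of 7.48% at the median but 27.6 ribosomal protein UMIs per spike-in UMI, and these wells had a median of 53071 UMIs in all.

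Of the other classes, cluster 9 wells had medians of 12.002% on plate 1 and 10.9% on plate 2. The 8 erythroid-like wells spread between 3.55% and 24.0%, with a median of 9.11%. Muscle-like wells lay between 3.86% and 10.1%. The shallow cluster 6 had medians of 3.29% on plate 1 and 4.57% on plate 2, with 0.30 and 0.35 ribosomal protein UMIs per spike-in UMI, both medians being below those of neutrophil-like wells.

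The neutrophil-like wells were not alike. On plate 1, cluster 5 wells had a median share of 13.02% (23 wells) and cluster 4 wells 5.50% (59 wells), although both clusters were named by the same markers. Cluster 5 wells of plate 2 had a median of 5.98% (36 wells), near the 5.33% of the 6 cluster 4 wells there. Within cluster 5 of plate 1 the gates were close, 13.02% in 13 mCherry+ wells and 12.6% in 10 mCherry- wells. Both values were above the macrophage-like median of that plate, 10.8%. The neutrophil markers summed to a median of 93482 CPM in cluster 5 wells of plate 1, 83455 in cluster 4 wells of plate 1 and 134204 in cluster 5 wells of plate 2. The proliferation markers summed to 462, 171 and 219.6 CPM in the same wells. Whether the share follows either list was not tested. At the lower clustering resolution tried, 19 neutrophil-like wells of plate 1 and 1 of plate 2 were left unnamed. A cluster of 65 wells there had the median depth and leading genes of cluster 4. The other neutrophil-like cluster there held 39 wells, against 59 in cluster 5. An unnamed cluster of 90 wells shared leading genes with cluster 2, EEF1B2 among them. Which cluster took the wells left unnamed is not given here.

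The gates were compared next, since the study sorted cells by mCherry to find macrophages with HSPC material. The median share was 14.4% in mCherry+ wells and 7.53% in mCherry- wells of plate 1, and 9.83% in mCherry+ wells and 8.52% in mCherry- wells of plate 2. The direction was the same on both plates but the difference was much larger on plate 1. The gates held different cells. Clusters 2 and 8 together made up 60 of 143 mCherry+ wells (42.0%) and 19 of 151 mCherry- wells (12.6%) on plate 1. On plate 2 they made up 14 of 123 mCherry+ wells (11.4%) and 6 of 117 mCherry- wells (5.13%). As means over wells, the mCherry+ share exceeded the mCherry- share by 5.51 percentage points on plate 1 and 1.78 on plate 2. The clusters found in both gates, 10 on plate 1 and 9 on plate 2, were then given the same weight in both. Clusters found in a single gate dropped out, among them cluster 8 on plate 2, whose 4 wells were all mCherry+. With this weighting the difference was 1.83 points on plate 1 and 0.149 on plate 2. Some clusters rested on 1 well in a gate. On plate 1, cluster 4 had 1 mCherry+ and 58 mCherry- wells, and cluster 9 had 13 mCherry+ and 1 mCherry- well. This weighting was added after the data were seen.

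**Figure D2:**
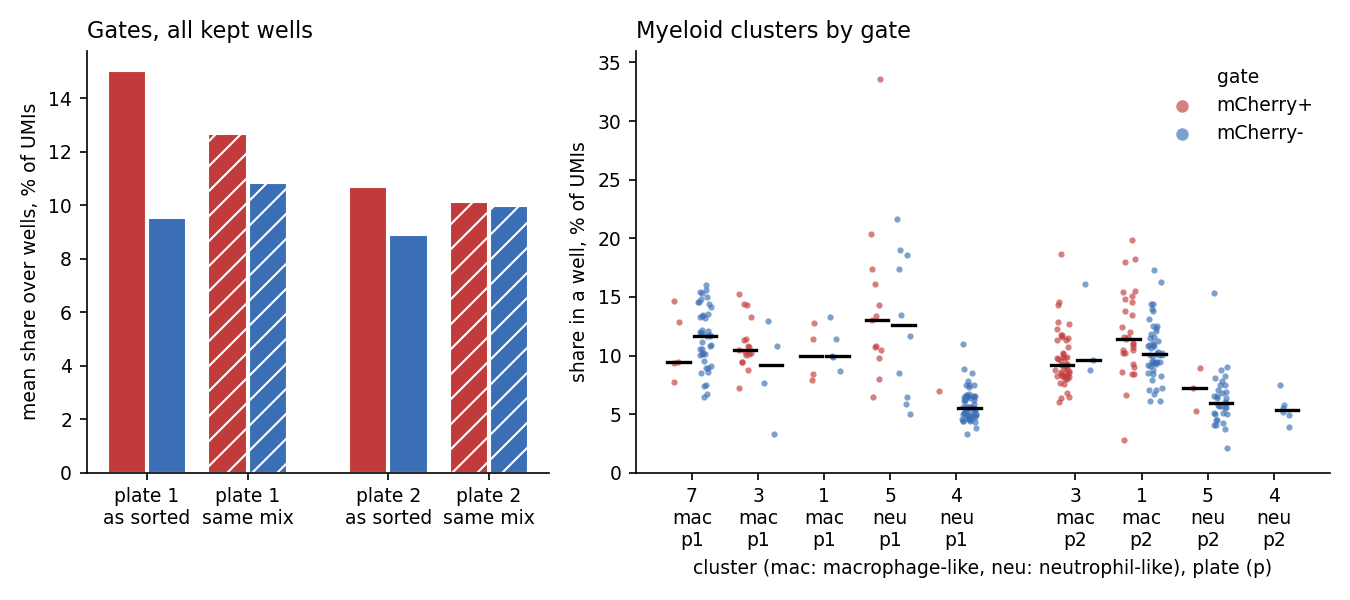
Left, mean share of UMIs from ribosomal protein genes (percent) over mCherry+ (red) and mCherry- (blue) wells of each plate, as sorted and with the same mix of clusters in both gates (hatched). The same mix covers only clusters found in both gates of a plate, some with 1 well in a gate. Right, share in each well of the macrophage-like and neutrophil-like clusters by gate and plate, with medians as black bars for groups of at least 3 wells; the 1 well of cluster 7 on plate 2 is not drawn. The gate difference of 5.51 points on plate 1 is 1.83 points with the same mix, and cluster 5 on plate 1 has a median of 13.02% in mCherry+ wells and 12.6% in mCherry- wells.

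Within macrophage-like wells the median share was slightly lower in mCherry+ wells, but this direction depended on how wells were classed. The mean difference over plates was -0.649 percentage points, and 2.28 points in classes from clusters of gene-wise scaled values. The median share was 10.4% in 26 mCherry+ wells and 11.5% in 51 mCherry- wells of plate 1, and 9.86% in 75 mCherry+ wells and 10.1% in 52 mCherry- wells of plate 2. The quartiles overlapped on both plates, at 9.46% to 12.4% in mCherry+ and 9.70% to 13.3% in mCherry- wells of plate 1, and 8.54% to 11.8% in mCherry+ and 9.20% to 11.9% in mCherry- wells of plate 2. The macrophage-like wells of the gates fell in different clusters. On plate 1, 17 of 26 mCherry+ wells were in cluster 3 and 42 of 51 mCherry- wells in cluster 7. On plate 2, 46 of 75 mCherry+ wells were in cluster 3 and 48 of 52 mCherry- wells in cluster 1. Cluster 3, whose leading genes include marco, SLC40A1 (an iron exporter) and HMOX1 (heme oxygenase), had a median share of 9.76% over its 70 wells. Clusters 1 and 7 had medians of 10.6% and 11.7%.

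Within neutrophil-like wells the mCherry+ share was higher on both plates. It was 11.9% in 14 mCherry+ wells and 5.64% in 68 mCherry- wells of plate 1, and 7.24% in 3 mCherry+ wells and 5.81% in 39 mCherry- wells of plate 2. On plate 1, 13 of the 14 mCherry+ wells were in cluster 5 and 58 of the 68 mCherry- wells in cluster 4. At the lower clustering resolution tried, 19 neutrophil-like wells of plate 1 were left unnamed. No gate difference of neutrophil-like wells in other classes is given here, so its dependence on the classing was not tested.

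For single genes, wells were summed by plate and gate or class, and the sums were compared with edgeR's quasi-likelihood test with plate as a block and Benjamini-Hochberg adjustment over all genes tested. Each comparison had 4 sums, which leaves 1 residual degree of freedom, so the spread was largely borrowed across genes. Levels below are TMM-normalised CPM, scaled within each comparison, so that the levels of 1 class differ between comparisons, and fold changes are on the log2 scale with their standard errors. A gene is called at an adjusted p under 0.05.

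Between the gates over all kept wells, no ribosomal protein gene was called. Of all 9904 genes tested, 470 (4.75%) were called, 2.42% higher and 2.32% lower. Of the 74 members tested, 72 had a positive fold change, with a median of 0.27 against 0.03 over all genes tested, and none had an unadjusted p under 0.05 by edgeR. DESeq2 also called 0 members, with none at an unadjusted p under 0.05. The largest fold changes were those of RPL12, a protein of the ribosome's stalk base, at 0.57 ± 0.26 (SE; edgeR adjusted p = 0.296), and RPL3, which lies at the peptidyl transferase centre, at 0.51 ± 0.33 (edgeR adjusted p = 0.491). RPL12 had 1328 and 1646 CPM in mCherry+ wells of plates 1 and 2, against 965 and 1025 CPM in mCherry- wells. With the 14 muscle-like wells left out the members' median was 0.14, and the count of all genes called was 43. With clusters 2 and 8 left out the members' median was 0.24, and the count of all genes called was 257.

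Between the gates within macrophage-like wells, the members' fold changes were small and mostly negative. Of all 5132 genes tested, 133 (2.59%) were called, 1.6% higher and 0.994% lower. Of the 73 members tested, 8 had a positive fold change, none was called by edgeR, and 1 had an unadjusted p under 0.05. DESeq2 also called 0 members, with 0 at an unadjusted p under 0.05. The median was -0.10, against -0.01 over all genes tested. The lowest value was that of RPL7L1, a paralog of RPL7 whose yeast relative Rlp7 acts in assembly of the large subunit. It had 32.5 and 49.8 CPM in mCherry+ wells of plates 1 and 2, against 99.5 and 71.2 CPM in mCherry- wells, a log2 fold change of -0.94 ± 0.39 (SE; edgeR adjusted p = 0.276). The median was 0.28 in classes from clusters of gene-wise scaled values, and -0.02 with cluster 3 left out.

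Ribosomal protein genes were mostly higher in the sums of macrophage-like wells than in those of neutrophil-like wells. Of the 73 members tested, 49 rose and none fell, where 16.1% of all 6335 genes tested rose and 30.4% were called in either direction. The members' median log2 fold change was 0.51, against 0.01 over all genes, and 72 of 73 were positive. By subunit, 31 of 41 large subunit genes rose, with a median of 0.52, and 18 of the 31 small subunit genes tested rose, with a median of 0.46. Each of the 49 was positive on both plates.

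The largest rise was that of RPS19 (ENSDARG00000030602), a small subunit protein whose gene is the one most often mutated in Diamond-Blackfan anemia. It had 1504 and 1230.4 CPM in macrophage-like wells of plates 1 and 2, against 861 and 659 CPM in neutrophil-like wells, a log2 fold change of 0.85 ± 0.16 (SE; edgeR adjusted p = 0.000976). RPL35A (ENSDARG00000088030), another Diamond-Blackfan gene, had 2072 and 1764 CPM in macrophage-like wells, against 1143 and 1001 CPM in neutrophil-like wells, a log2 fold change of 0.84 ± 0.14 (edgeR adjusted p = 0.000582). For both genes each macrophage-like sum was above each neutrophil-like sum. The other members among the 10 with the largest rises had log2 fold changes between 0.69 and 0.78. They were RPL4, RPL17 and RPL23A, which line or ring the tunnel where the new chain leaves the ribosome, RPL29, rps27.2, rpl7a, RPS9, and RPL38, known in mouse for its part in translating Hox mRNAs.

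The 10 members with most UMIs were RPS2 (20824 UMIs in the kept wells), RPLP1, RPL6, RPLP0, RPL8, RPS4Y2, RPL7, RPL19, rps20 and rps27a (14435 UMIs), whose product is ubiquitin fused to a small subunit protein. Of these, RPL6 (log2 fold change 0.42), RPL8 (0.47), RPS4Y2 (0.56), RPL7 (0.48), rps20 (0.55) and rps27a (0.46) rose in macrophage-like over neutrophil-like wells. RPLP1 (0.30) and RPL19 (0.24) did not pass the test, nor did RPS2 and RPLP0. RPS2 had 3122 and 2610.4 CPM in macrophage-like wells of plates 1 and 2, against 2857 and 2695 CPM in neutrophil-like wells, a log2 fold change of 0.04 ± 0.12 (SE; edgeR adjusted p = 0.850). RPLP0, which anchors the ribosome's stalk, had 2060 and 2116 CPM in macrophage-like wells, against 2213 and 1980 CPM in neutrophil-like wells, a log2 fold change of -0.0046 ± 0.13 (edgeR adjusted p = 0.986). The sums of the classes overlapped for both genes. Relative to the members' median, RPS2 lay at -0.47 and RPLP0 at -0.52 on the log2 scale. These 2 genes were singled out after their values were seen.

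The count of 49 rested on the fit. DESeq2 called 2 members and the fit without the plate block called 2, at medians of 0.50 and 0.50, and edgeR called 27 in classes from clusters found with the members kept. In classes from gene-wise scaled values none was called and the median was 0.03, where 48 of the 77 macrophage-like wells of plate 1 were placed with neutrophil-like wells and 28 of the 42 neutrophil-like wells of plate 2 with macrophage-like wells. In mCherry- wells alone 57 members rose, with a median of 0.64.

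**Figure D3:**
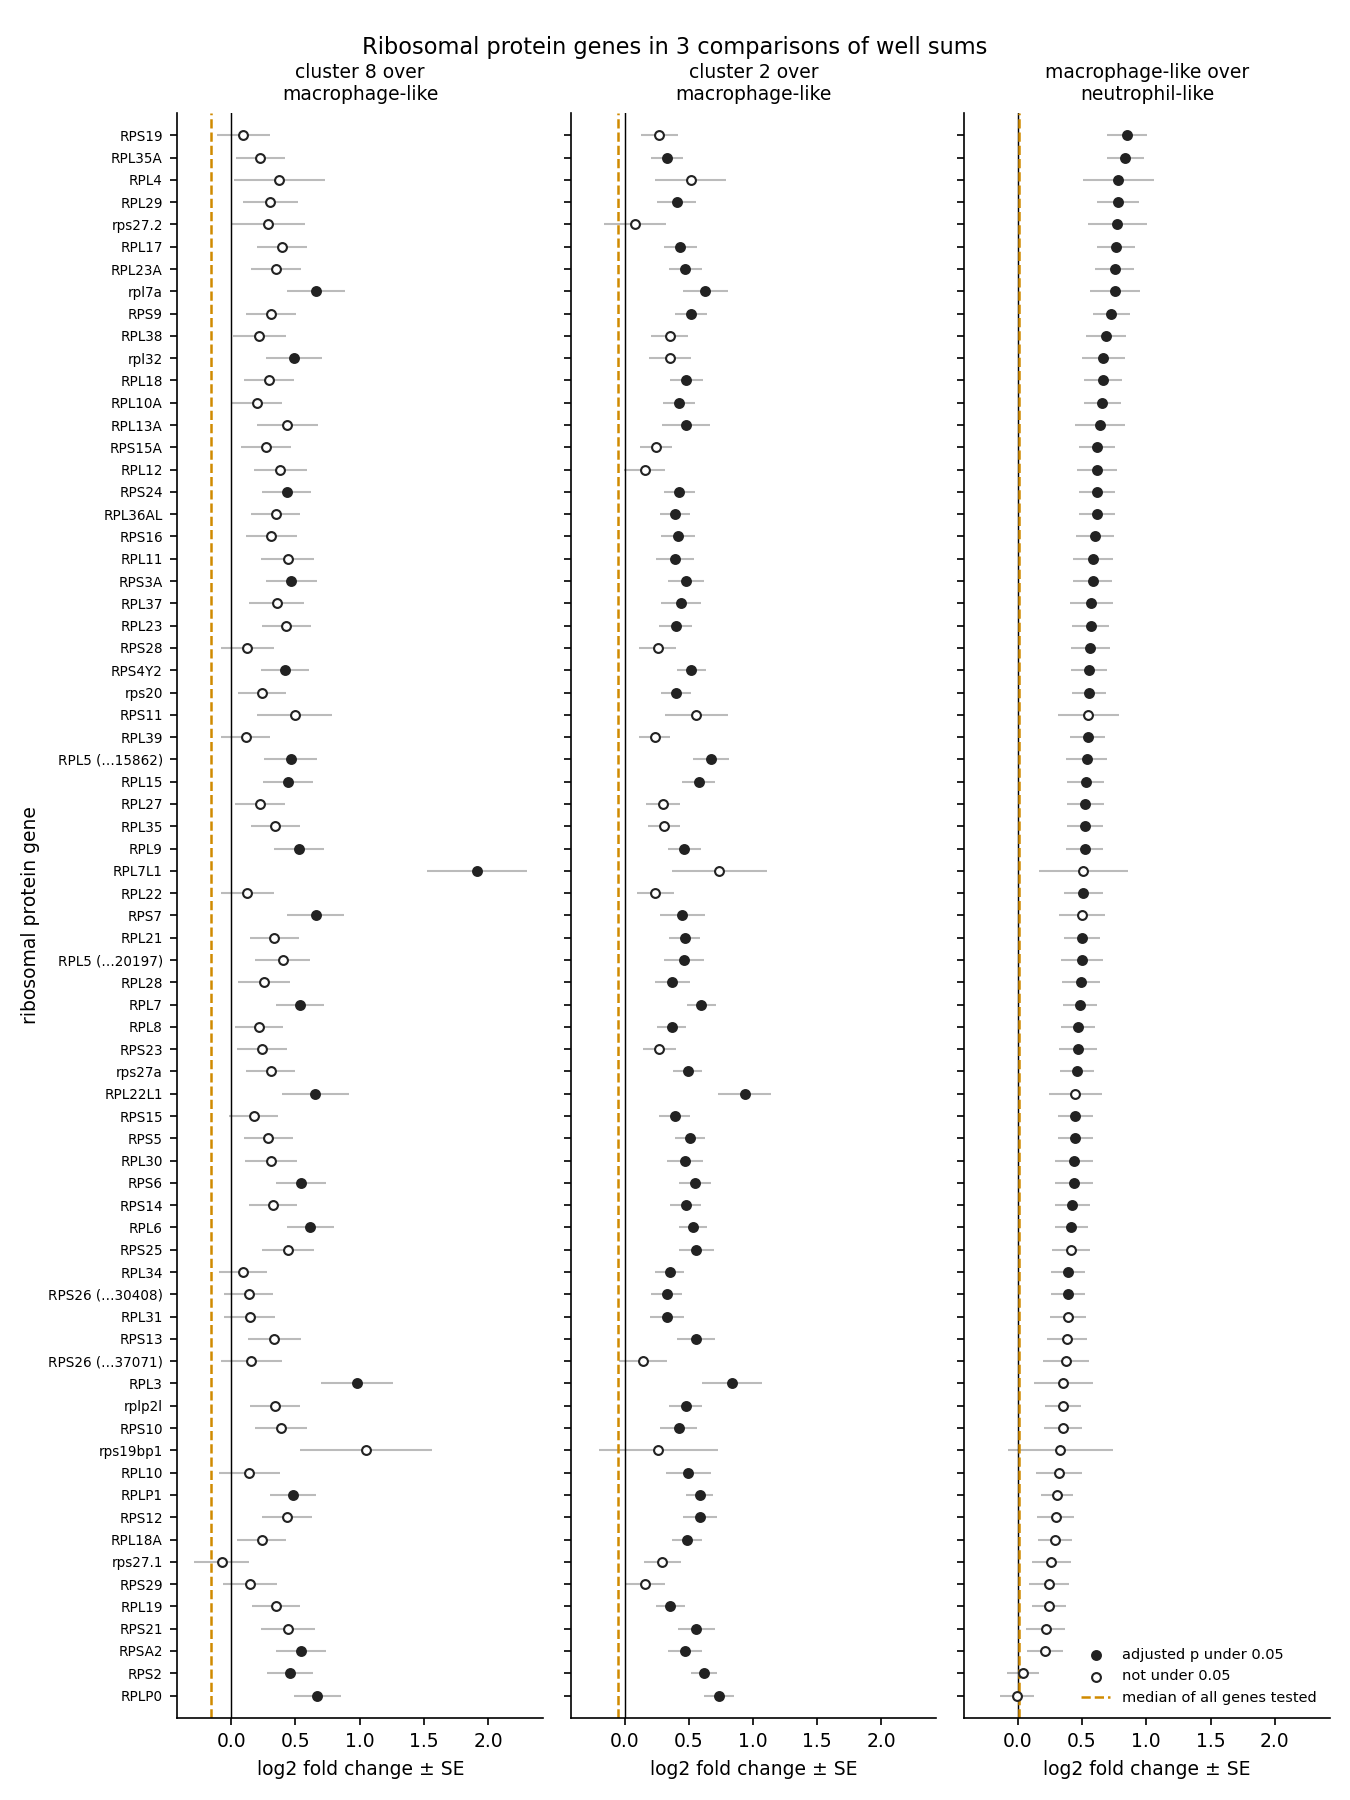
Log2 fold changes (x axes, points with bars of 1 SE) of 71 of the 73 ribosomal protein genes tested (y axis, ordered by the right panel) in cluster 8 over macrophage-like wells, cluster 2 over macrophage-like wells, and macrophage-like over neutrophil-like wells. Filled points have an edgeR adjusted p under 0.05, 19, 52 and 48 of the 71 drawn in the panels from left to right, and the dashed line is the median of all genes tested. In the left panel RPL7L1 stands apart at 1.91, and in the right panel RPS2 and RPLP0 lie at 0.

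Cluster 8 was then set against macrophage-like wells, as the cluster with most progenitor and proliferation markers. Of the 73 members tested, 20 rose and none fell, a share of 27.4% where 22.1% of all 6631 genes tested rose and 51.3% were called in either direction. The share that rose was near that of genes at large. The members' median log2 fold change was 0.35, against -0.15 over all genes, and 72 of 73 were positive. This comparison depended on the scaling. With library size only, all 73 members rose with a median of 0.90, and the median of all genes was 0.38. DESeq2 called 3 members, the fit without the plate block 4, and mCherry+ wells alone 3, whereas leaving out the largest well of each sum gave 49. Plate 2 held 4 wells of cluster 8, all mCherry+. The spread used in this fit was borrowed entirely across genes, so its p-values hold no spread of the single gene.

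RPL7L1 changed most. It had 257 and 363 CPM in cluster 8 wells of plates 1 and 2, against 89.9 and 68.9 CPM in macrophage-like wells, a log2 fold change of 1.91 ± 0.39 (SE; edgeR adjusted p = 5.68e-06). RPL3 (ENSDARG00000003599) had 714 and 559 CPM in cluster 8 wells, against 307 and 349 CPM in macrophage-like wells, a log2 fold change of 0.98 ± 0.28 (edgeR adjusted p = 0.00142). RPLP0 had 4958 and 3592 CPM in cluster 8 wells, against 2647 and 2681 CPM in macrophage-like wells, a log2 fold change of 0.67 ± 0.19 (edgeR adjusted p = 0.0011). For these 3 genes each cluster 8 sum was above each macrophage-like sum. The rest of the 10 largest rises lay between 0.54 and 0.66, and among them were those of rpl7a, RPS7 (a Diamond-Blackfan gene), RPL22L1, RPL6, RPSA2, a form of the laminin receptor protein of the small subunit, and RPS6, the substrate of S6 kinase. RPS19 had a log2 fold change of 0.09 ± 0.21 (edgeR adjusted p = 0.719) here.

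Cluster 2 against macrophage-like wells was added after the data were seen. Of the 73 members tested, 53 rose and none fell, where 14.3% of all 6538 genes tested rose and 35.3% were called in either direction. The median log2 fold change was 0.45, against -0.05 over all genes, and all 73 were positive. RPL22L1 led with 873 and 813 CPM in cluster 2 wells of plates 1 and 2, against 499 and 386 CPM in macrophage-like wells, a log2 fold change of 0.94 ± 0.21 (SE; edgeR adjusted p = 0.000771). RPLP0 had 4573 and 3732 CPM in cluster 2 wells, against 2485 and 2481 CPM in macrophage-like wells, a log2 fold change of 0.74 ± 0.12 (edgeR adjusted p = 1.47e-05). RPL3 had a log2 fold change of 0.83 ± 0.23 (edgeR adjusted p = 0.00637). The other members among the 10 with the largest rises, between 0.58 and 0.67, were RPL5 (ENSDARG00000015862), rpl7a, RPS2, RPL7, RPS12, RPLP1 and RPL15. DESeq2 called no member, with 5 at an unadjusted p under 0.05 and a median of 0.43. The fit without the plate block called 3, mCherry- wells alone 1 and mCherry+ wells alone 45, and 20 were called without the largest well of each sum. Both comparisons use the same macrophage-like sums, so they are not independent of each other or of the comparison with neutrophil-like wells. In all of these comparisons the wells were grouped by their expression. The members were left out of the clustering, but genes whose shares followed theirs, such as EEF1B2, were not. Calls and p-values of the members are therefore not independent of how the wells were grouped.

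The Diamond-Blackfan list was counted within the family. Of its 21 genes in the tables, 15 rose in macrophage-like over neutrophil-like wells (median 0.53), where 16.1% of all genes tested rose. Beside RPS19 and RPL35A they included rps27.2 (0.78), RPL18 (0.66), RPS15A, RPS24, RPL11, RPS28, both RPL5 genes, RPL15, RPL27, RPL35 and RPS26 (ENSDARG00000030408, 0.39). In cluster 8 over macrophage-like wells 4 rose, RPS7 (0.66), RPL5 (ENSDARG00000015862, 0.46), RPL15 (0.44) and RPS24 (0.43), with a median of 0.27 over the list, and 4 of 21 is below the 22.1% of all genes tested that rose. In cluster 2 over macrophage-like wells 11 rose (median 0.33, where 14.3% of all genes tested rose), both RPL5 genes, RPL15 (0.58), RPL18, RPS7, RPS24, RPS10, RPL11, RPL31, RPL35A and RPS26 (ENSDARG00000030408, 0.33). Over the whole family, 49, 20 and 53 of the 73 members tested rose in the same comparisons, taken in that order. The family's medians were 0.51, 0.35 and 0.45, and whether the list differs from the family was not tested. No gene of the list fell in these comparisons, and none was called between the gates. These genes took a median of 5.34% and 5.70% of UMIs in cluster 8 wells of plates 1 and 2, 2.87% and 2.69% in macrophage-like wells, and 1.61% and 1.52% in neutrophil-like wells.

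Other parts of the translation apparatus were counted beside the members. Unlike the members, the genes of the lists below were not left out when wells were clustered. Of them, npm1a was among the 10 leading genes of cluster 8, and EEF1B2 among those of cluster 2. Rises of these lists in those clusters are therefore not independent of how the wells were grouped. Of 31 ribosome biogenesis genes, which make and process rRNA, 29 were tested in cluster 8 over macrophage-like wells and 27 rose, with a median log2 fold change of 2.68. Among them were npm1a (2.92), NOP56 (2.55), FBL, the fibrillarin that methylates rRNA (2.90), and DKC1, which makes pseudouridine in rRNA (3.68). The 2 that did not pass were DDX21 (0.50) and RSL24D1 (0.39). In cluster 2 over macrophage-like wells 20 of 29 rose, with a median of 1.15. In macrophage-like over neutrophil-like wells 2 of 19 tested rose, npm1a (1.72) and nop2 (1.32). The share of UMIs of these 31 genes had a median of 1.03% and 1.24% in cluster 8 wells of plates 1 and 2, 0.374% and 0.349% in cluster 2 wells, and 0.160% and 0.146% in macrophage-like wells. Of 64 mitochondrial ribosomal protein genes, which serve the separate ribosome of the mitochondrion, 43 of 61 tested rose in cluster 8 over macrophage-like wells (median 1.76), 4 of 56 in cluster 2 over macrophage-like wells (median 0.68) and 1 of 40 in macrophage-like over neutrophil-like wells (median 0.59). For scale, 22.1%, 14.3% and 16.1% of all genes tested rose in these 3 comparisons, taken in the same order. The 4 of 56 and 1 of 40 mitochondrial ribosomal protein genes, and the 2 of 19 biogenesis genes, were smaller shares than those of all genes. The largest rises in cluster 8 were those of mrpl9 (3.26), MRPL43 (3.11) and MRPL46 (3.04). The 4 in cluster 2 were mrps18b (1.81), MRPL28 (1.69), MRPL11 (1.42) and MRPL12 (1.23), and the 1 in macrophage-like wells was mrpl34 (1.61). The mrpl34 sums of plates 1 and 2 were 26 and 56 UMIs in macrophage-like wells, against 11 and 1 in neutrophil-like wells. Between the gates over all kept wells, 25 of the 29 biogenesis genes tested had a positive fold change (median 0.58) and 59 of the 63 mitochondrial ribosomal protein genes (median 0.53). Within macrophage-like wells it was 1 of 17 biogenesis genes (median -0.46) and 15 of 28 mitochondrial ribosomal protein genes (median 0.10).

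In macrophage-like over neutrophil-like wells 16.1% of all genes tested rose. Of 23 other genes whose mRNAs carry the oligopyrimidine tract, chiefly elongation and initiation factors, 5 of 19 tested rose there and 1 fell (median 0.31). Those that rose were npm1a, which is also on the biogenesis list, naca (0.93), part of the complex that meets new chains at the tunnel exit, the poly(A)-binding pabpc1b (0.96), and the elongation factor genes EEF1D (0.78) and EEF1B2 (0.50). EIF3H fell by 2.45 on the log2 scale, on few UMIs. It had 4 and 5 in macrophage-like sums of plates 1 and 2, against 18 and 6 in neutrophil-like sums. The same low macrophage-like counts enter its value in cluster 8 below. In cluster 2 over macrophage-like wells, where 14.3% of all genes tested rose, 6 of 18 rose. They were npm1a, eef2a.1 (0.96), EEF1B2 (0.56), EEF1G (0.46), RACK1 (0.40) and eef1a1l1 (0.24), and pabpc1b fell by 1.39. In cluster 8 over macrophage-like wells 3 of 19 rose, npm1a, EIF3H (2.70) and BTF3 (0.50), a count below the 22.1% of all genes tested that rose, and pabpc1b fell by 2.44.

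The make-up of the ribosomal protein UMIs was then compared between classes. Large subunit genes took 57.0% and 57.4% of the subunit UMIs in cluster 8 wells of plates 1 and 2, 56.4% and 56.8% in macrophage-like wells, and 55.9% and 55.6% in neutrophil-like wells. Gene by gene, the shares of ribosomal protein UMIs in macrophage-like and neutrophil-like wells of plate 1 had a Pearson correlation of 0.994 on the log2 scale over 74 genes, and 72 of them were within 0.5. On plate 2 it was 0.987 over 75 genes, with 70 within 0.5. Cluster 8 and macrophage-like wells had 0.992 over 75 genes on plate 1 and 0.961 over 73 genes on plate 2. Muscle-like and macrophage-like wells had 0.945 over 74 genes on plate 1 and 0.979 over 75 genes on plate 2. For scale, macrophage-like wells of the 2 plates had 0.995 over 75 genes. These correlations are across genes, which are not independent replicates, and most of their spread is the fixed difference between abundant and rare members.

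**Figure D4:**
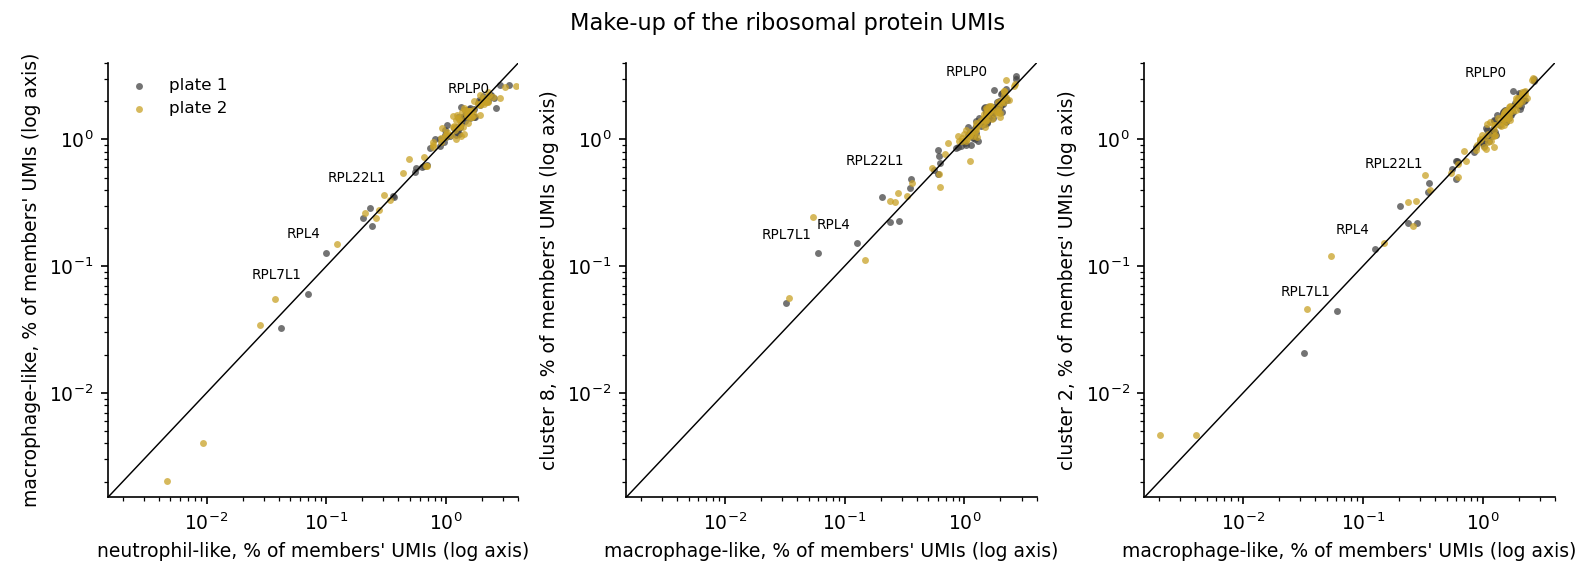
Each ribosomal protein gene's percent of all ribosomal protein UMIs (log axes) in macrophage-like against neutrophil-like wells, cluster 8 against macrophage-like wells, and cluster 2 against macrophage-like wells, with grey points for plate 1, yellow points for plate 2 and a line of equality. Genes at 0 in either class, or below the lower end of the axes, are not drawn. Most genes lie on the line, and RPL7L1 lies above it in the middle panel.

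Among the genes that led or trailed the comparisons, RPL7L1 took 0.127% and 0.244% of ribosomal protein UMIs in cluster 8 wells of plates 1 and 2, 0.0603% and 0.0546% in macrophage-like wells, and 0.0702% and 0.0376% in neutrophil-like wells. RPS2 took 2.69% and 2.62% in macrophage-like wells, against 3.36% and 3.81% in neutrophil-like wells. RPLP0 took 1.78% and 2.13% in macrophage-like wells, against 2.60% and 2.80% in neutrophil-like wells.

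Several members have a paralog in the tables, so the balance of each pair could be read within a class. RPL22L1 (ENSDARG00000010244) and RPL22 (ENSDARG00000070437) are paralogs with opposed roles in the emergence of blood stem cells in zebrafish embryos. RPL22L1 made up 32.5% of the pair in cluster 8 wells of plate 1 (95% exact binomial interval 29.8% to 35.2%) and 24.95% in those of plate 2 (18.3% to 32.7%). In cluster 2 wells it made up 28.7% (26.4% to 31.1%) on plate 1 and 34.9% (29.6% to 40.3%) on plate 2. It made up 22.4% (20.3% to 24.6%) and 22.0% (20.2% to 23.7%) in macrophage-like wells, and 23.5% (20.7% to 26.5%) and 22.3% (17.9% to 27.23%) in neutrophil-like wells. Muscle-like wells had 33.1% and 34.9%. The intervals of cluster 2 and macrophage-like wells did not overlap on either plate, whereas those of cluster 8 and macrophage-like wells overlapped on plate 2, where 152.5 UMIs of the pair were counted. All these intervals cover counting error of UMIs pooled over wells, and not the spread between wells. In the fits, RPL22L1 rose in cluster 2 over macrophage-like wells by 0.94, while RPL22 had 0.24 ± 0.15 (SE; edgeR adjusted p = 0.212).

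**Figure D5:**
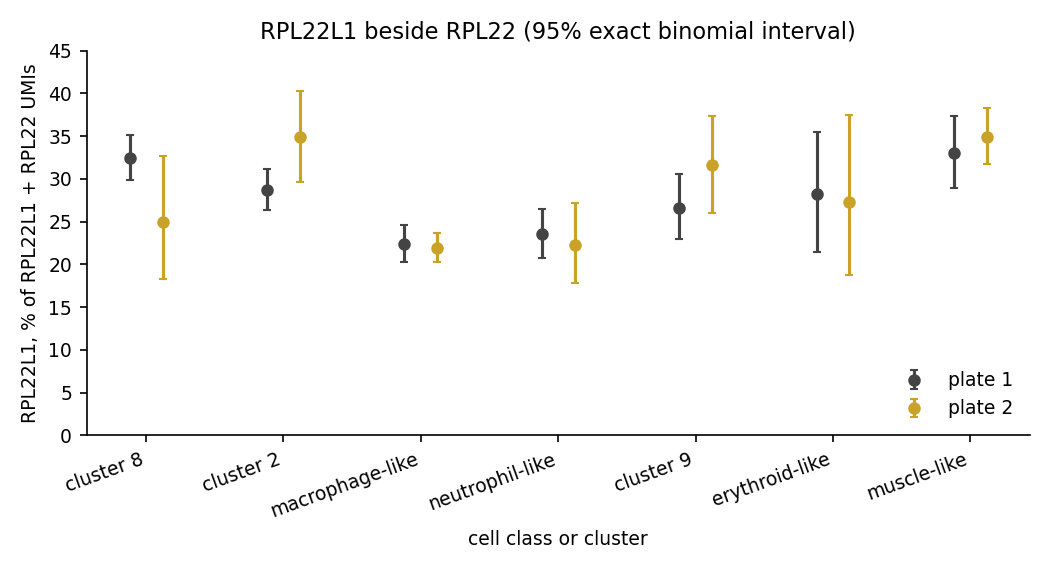
RPL22L1 UMIs as a percent of RPL22L1 plus RPL22 UMIs (y axis) in each class or cluster (x axis), summed over wells of plate 1 (grey) and plate 2 (yellow). Points are the sums and bars their 95% exact binomial intervals, which cover counting error only. Macrophage-like and neutrophil-like sums lie between 22.0% and 23.5%, and the other sums between 24.95% and 34.9%.

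RPL7L1 made up 5.25% (4.30% to 6.31%) and 9.13% (6.05% to 13.1%) of RPL7L1 plus RPL7 in cluster 8 wells of plates 1 and 2, against 2.92% (2.21% to 3.77%) and 2.50% (1.99% to 3.09%) in macrophage-like wells. The intervals did not overlap on either plate, but here too they cover counting error only. In cluster 8 of plate 2 they rest on 26.03 RPL7L1 UMIs from 4 wells. RPS26 (ENSDARG00000037071) made up 22.4% and 23.9% of the RPS26 pair in macrophage-like wells of plates 1 and 2, against 23.1% and 23.7% in neutrophil-like wells. RPL5 (ENSDARG00000020197) made up 45.3% and 45.3% of the RPL5 pair in macrophage-like wells, against 45.1% and 46.9% in neutrophil-like wells. RPL5 protein binds and restrains MDM2 when ribosome assembly fails. The rps27.2 gene made up 19.3% (17.2% to 21.5%) and 19.1% (17.4% to 20.8%) of the rps27 pair in macrophage-like wells, against 15.5% (13.1% to 18.1%) and 13.02% (9.68% to 17.1%) in neutrophil-like wells. The rps11l gene was nearly silent, with 18 UMIs in all kept wells. Reads from near-identical copies can be divided between them when they are mapped, so the balance within a pair is uncertain.

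Genes not counted as members were ranked by how closely their share followed that of the members over the 534 wells, among 933 genes found in at least 50% of wells. The first was si:dkey-151g10.6, with a Spearman rho of 0.91. The next 4, between 0.88 and 0.83, and 11 of the 17 highest genes in all have no symbol in the reference table, so the rule, which goes by symbol, could not tell whether they belong to the family. Such genes were not left out of the clustering either. Named ones that followed were eef1a1l1 (0.83), the elongation factor that carries aminoacyl-tRNA, EEF1B2 (0.81), RACK1 (0.80), a scaffold on the small subunit, and EEF1G (0.75). Within the 204 macrophage-like wells the same genes had rho of 0.72, 0.62, 0.52, 0.58 and 0.45. At the other end were ELOVL5 (-0.47), GAPDH (-0.39) and LECT2 (ENSDARG00000033227, -0.37), a neutrophil marker. All these shares come from the same libraries and sum to a fixed total, so the correlations are descriptions.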

How the data were processed

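SORT-seq, which adds unique molecular identifiers (UMIs) by CEL-Seq2 chemistry to single cells sorted into 384-well plates, was applied to 2 plates. The authors deposited 1 table per plate of expected counts per gene and well, that is, UMI counts corrected for molecules that drew the same 6-base tag (4096 possible tags). The submitters' processing notes list BWA, Seurat and the GRCz11 build, and their versions and the counting tool are not given in the sources used here. The correction, which is largest for genes with many UMIs in a well, added 3.85% and 7.00% of UMIs on plates 1 and 2, and 0.732% for the ribosomal protein genes. ERCC spike-in counts (1.13% of all) were set aside. Symbols came from a reference name table, which gave 17425 of 22342 gene identifiers a symbol (81.7% of UMIs). The members and gene lists were chosen with earlier results of these data known.

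Wells with at least 500 UMIs and 200 genes were kept, scaled to 10000 UMIs and clustered on log values of 2000 variable genes, without the members (30 components, 15 neighbours, resolution 1; Python 3.11.15, scanpy 1.11.5, leidenalg 0.10.2, scipy 1.17.1). Unscaled values were chosen after the clusters were seen, since clusters on gene-wise scaled values put macrophage-like and neutrophil-like wells together by plate. Clusters were named from at least 3 raised markers. No doublet caller was run. Expected counts were summed over wells by plate and class, rounded to whole numbers and tested with edgeR 4.0.16 after filterByExpr and TMM scaling (R 4.3.3, limma 3.58.1), with plate as a block, since both sorts were put on each plate, and Benjamini-Hochberg adjustment at 0.05. DESeq2 1.42.0, other filters, scalings and clusterings, and single plates were tried as alternatives. Whether the plates came from separate animals is not stated, so p-values cannot be taken to cover the spread between animals. With plate as a block, differences in level between plates were removed. The spread left was how far the tested difference varied between plates, moderated by spread borrowed across genes. For the cluster with most progenitor and proliferation markers the spread was borrowed entirely, so those p-values hold no plate spread of the single gene. The genes named were, in each comparison, the 10 members with the largest change in each direction among those called and changed alike on both plates, the 10 members with most UMIs, paralog pairs, the called genes of each list and the 5 other genes most like the family. Other genes named were chosen after their values were seen. A few genes that meet this rule are not reported here by name, but are in every count.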

Additional observations from a re-analysis of the deposited data

Results flagged for a closer look

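The difference between the gates in the median ribosomal protein share had opposite directions in the 2 myeloid classes. In macrophage-like wells, mCherry+ minus mCherry- was -1.05 percentage points on plate 1 and -0.243 on plate 2. In classes from gene-wise scaled values its mean over plates was 2.28 points, the other direction, with 8 mCherry+ and 6 mCherry- wells on plate 1. In neutrophil-like wells it was 6.28 points on plate 1 and 1.43 on plate 2, where plate 2 had 3 mCherry+ wells. No value of the neutrophil-like difference in other classes is given here, although 19 of these wells on plate 1 were left unnamed at the lower resolution. Whether the classes differ in this was not tested, and the gates filled different clusters within each class.

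Wells under the minimum of 500 UMIs and 200 genes entered no comparison, and also held ribosomal protein UMIs. Their share of the summed observed UMIs was 7.18% (95% exact binomial interval 6.68% to 7.71%) in 49 mCherry+ wells and 6.43% (5.85% to 7.04%) in 41 mCherry- wells of plate 1. On plate 2 it was 5.52% (5.15% to 5.91%) in 69 mCherry+ wells and 5.21% (4.82% to 5.62%) in 75 mCherry- wells. These wells had medians between 139 and 191 UMIs, and the intervals cover counting error only.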

How the results depend on the processing

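The members' median log2 fold change kept its sign under every alternative run for each of the 5 comparisons but 1. That was the gate within macrophage-like wells, where classes from gene-wise scaled values gave 0.28 against -0.10. The alternatives were not the same for each comparison. Only this one and macrophage-like over neutrophil-like wells were refitted in other clusterings. The comparisons of clusters 8 and 2 were not, so their dependence on the classing was not tested. Counts of called members moved much more. Settings on gene-wise scaled values, without clusters 2 and 8 or without cluster 3, without marker genes in the denominator and with the same mix of clusters were chosen after seeing the data, as was the whole comparison of cluster 2. The causes of these movements were not tested.

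Between the gates over all kept wells, 470 genes were called. It was 57 with no replicate block (plates not paired), 43 without muscle-like wells, 257 without clusters 2 and 8, 232 without the largest well of each sum, 924 with library size only and 1102 with no filter. The members' median of 0.27 was 0.33 with library size only, 0.24 without clusters 2 and 8 and 0.14 without muscle-like wells. No member was called by edgeR or DESeq2 in any setting. Within macrophage-like wells 133 genes were called, and 80 with no replicate block, 83 by DESeq2, 83 without cluster 3, 239 in clusters found with the members, 0 without the largest well of each sum, 371 with library size only, 285 at a minimum of 2000 UMIs, 298 with no filter and 204 on observed UMIs. The median was -0.23 with no filter.

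In macrophage-like over neutrophil-like wells 1929 genes were called, 939 by DESeq2 and 51 in scaled classes. The 49 members called were 2 by DESeq2, 2 with no replicate block, 27 in clusters found with the members and 0 in scaled classes. Their median of 0.51 was 0.65 with library size only, 0.64 in mCherry- wells and 0.031 in scaled classes, where RPS9 (-0.020), rpl7a (-0.0028) and RPL4 (-0.16), the named genes among them, changed sign and 45 of 73 members were positive, against 72 in the fit reported. It was 0.44 to 0.53 on single plates.

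In cluster 8 over macrophage-like wells 3402 genes were called, 2236 by DESeq2 and 1570 with no filter. The 20 members called were 3 by DESeq2, 4 with no replicate block, 49 without the largest well of each sum, 73 with library size only, 3 in mCherry+ wells and 0 with no filter. Their median of 0.35 was 0.076 by DESeq2, 0.52 without the largest well, 0.90 with library size only and 0.0081 with no filter. The median of all genes moved as well, -0.15 in the fit reported, -0.49 by DESeq2, 0.38 with library size only and -1.01 with no filter, and the members exceeded it by 0.50, 0.57, 0.52 and 1.02.

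In cluster 2 over macrophage-like wells 2307 genes were called, 796 by DESeq2, 1505 in mCherry+ wells and 639 in mCherry- wells. The 53 members called were 0 by DESeq2, 3 with no replicate block, 20 without the largest well of each sum, 1 in mCherry- wells and 2 with no filter. Their median of 0.45 was 0.43 by DESeq2, 0.42 without the largest well, 0.80 with library size only, 0.64 in mCherry+ wells, 0.40 in mCherry- wells, 0.23 with no filter and 0.43 to 0.44 on single plates. Of 330 alternative values for the named genes, 232 were counted as keeping direction and call, 95 kept their direction only and 3 changed sign. The 232 include all single-plate values, 10 for each plate in each comparison with named genes. A single plate allows no test, and these genes were chosen for changing alike on both plates. Their single-plate direction was thus fixed in advance and says nothing on stability.

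The mean of the plate medians of the share was 10.4% in macrophage-like wells and 11.1% without mitochondrial genes. It was 6.05% in neutrophil-like wells, 7.18% over summed UMIs, 5.69% at resolution 0.5, 9.34% in scaled classes and 6.80% without marker genes. It was 21.6% in cluster 8, 22.6% without mitochondrial genes and 20.2% over summed UMIs. In other clusterings, the cluster with most progenitor and proliferation markers was not the same set of wells. It had 16.9% in clusters found with the members, where it held 35 wells and had raised 10 of 12 erythroid markers. In scaled classes it had 18.3%, held 39 wells and was named erythroid-like. The gate difference within macrophage-like wells of -0.649 points was 2.28 points in scaled classes. The difference of mean shares over all wells of 3.64 points was 0.992 with the same mix of the clusters found in both gates.

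Each comparison rests on 4 sums, and a single plate leaves no residual degrees of freedom for a test. Plate 2 held 4 cluster 8 wells and 3 neutrophil-like mCherry+ wells. A share is relative to the other genes of a well.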
